A study of Danio rerio with 24 samples.

Results

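The 6 genes ldhd (ENSDARG00000038845), rogdi (ENSDARG00000104413), itih2 (ENSDARG00000045516), slc27a6 (ENSDARG00000046053), npas1 (ENSDARG00000015876) and adh8a (ENSDARG00000091211) were examined in zebrafish larval livers that overexpress miR-21. They are 6 of the 32520 genes of the count table, and each ID was found once. They were selected on their lower counts in miR-21OE livers than in WT livers of these same libraries. Their differences between miR-21OE and WT are therefore given as a description, with no test, and support nothing by themselves. The one measurement that did not choose them is their response to diet in the WT livers of batches 1 to 6, and that response was tested.

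Livers were dissected at 13 days post-fertilization (dpf) and 13 livers of 1 clutch were pooled per RNA-seq library. There were 3 libraries of miR-21OE-NCD, 3 of miR-21OE-HCD, 9 of WT-NCD and 9 of WT-HCD. NCD is a normal control diet and HCD a high-cholesterol diet with 10% cholesterol, both fed from 6 dpf. Batches 7 to 9 each hold 1 library of all 4 groups, and batches 1 to 6 each hold 1 WT-HCD and 1 WT-NCD library. miR-21OE larvae carry a transgene in which the hepatocyte promoter fabp10a drives the precursor dre-mir-21-1 and the fluorescent protein Dendra2, with a lens marker in which the cryaa promoter drives mCherry. In the experiment with all 4 groups, batches 7 to 9, WT larvae were their non-transgenic siblings. For batches 1 to 6 the labels give only wild-type. No group analysed here carried the transgene without the precursor, so effects of miR-21, of Dendra2 and of carrying the transgene cannot be told apart. The study made miR-21OE fish from several founders on the AB background, and the labels do not say which founder gave which library.

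MicroRNAs such as miR-21 pair through their seed with messenger RNAs and lower their stability or translation, so a messenger that falls may be a direct target or may lie further downstream. miR-21 is raised in many liver tumours. The 6 genes have unrelated roles. In mammals LDHD is the mitochondrial enzyme that oxidises D-lactate to pyruvate, and ROGDI is a part of the machinery that assembles the proton pump V-ATPase. Inter-alpha-trypsin inhibitor heavy chain 2, the product of itih2, is a plasma protein secreted by hepatocytes that is transferred onto hyaluronan. The product of slc27a6 belongs to the fatty acid transport proteins, which take up fatty acids and couple them to coenzyme A. Npas1 is a transcriptional repressor of the bHLH-PAS family, known mainly from the mouse brain, and adh8a encodes a zebrafish alcohol dehydrogenase that can oxidise ethanol.

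Total counts ranged from 16942574 to 36641566 per library. The symbol MIR21 belongs to 2 IDs, and which of them is dre-mir-21-1 is not given in the sources used here. ENSDARG00000082187 counted 117, 146 and 210 reads in miR-21OE-NCD of batches 7, 8 and 9, against 53, 25 and 12 in WT-NCD. On HCD it counted 158, 152 and 160 reads in miR-21OE-HCD, against 139, 36 and 45 in WT-HCD. The miR-21OE libraries were thus above WT of their own batch in all 6 pairs, by the least in batch 7 on HCD, while WT-HCD of batch 1, with 249 counts, exceeded all miR-21OE libraries. The other ID, ENSDARG00000080484, had 0 to 3 counts in each miR-21OE library and 0 to 19 in each WT library. The libraries were not made from small RNA, so these counts do not measure the mature microRNA. Levels below are counts per 1000000 (CPM), scaled over the 24 libraries by the trimmed mean of M-values (TMM). They serve to compare libraries for 1 gene and not genes with each other, because transcript length was not taken into account. The 8 hepatocyte marker genes listed for this tissue, among them fabp10a, tfa and the fibrinogen chains, were all counted in every library. Their summed level was 32190 to 47530 CPM in miR-21OE-NCD and 35300 to 49110 CPM in WT-NCD of batches 7 to 9, and 33200 to 42200 CPM in miR-21OE-HCD and 23420 to 47340 CPM in WT-HCD. In pooled tissue, fewer cells of a type and less RNA per cell cannot be told apart.

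ldhd, the D-lactate oxidising enzyme, was lower in miR-21OE livers on both diets and in all 3 batches. It stood at 1.06, 1.156 and 2.67 CPM in miR-21OE-NCD of batches 7, 8 and 9, against 13.6, 18.7 and 21.4 CPM in WT-NCD. All 3 miR-21OE-NCD libraries lay below all 3 WT-NCD libraries, and WT-NCD was 12.7-, 16.2- and 8.02-fold higher within its batch. On HCD it stood at 2.56, 1.81 and 1.56 CPM in miR-21OE-HCD, against 9.12, 17.6 and 16.0 CPM in WT-HCD. These groups did not overlap either. The fitted log2 fold change was -3.45 (SE 0.42) on NCD and -2.85 (SE 0.41) on HCD. Over all 24 libraries the highest miR-21OE value, 2.67 CPM, was below the lowest of the 18 WT values, 2.89 CPM in WT-HCD of batch 1, so the 2 genotypes were separated by a narrow margin. WT-NCD of batches 1 to 6 was itself lower, at 8.21 to 11.9 CPM, than WT-NCD of batches 7 to 9.

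rogdi, linked to V-ATPase assembly, was lower in miR-21OE livers in each of the 6 batch pairs. It measured 1.67, 2.27 and 2.37 CPM in miR-21OE-NCD of batches 7, 8 and 9, against 10.8, 11.9 and 8.58 CPM in WT-NCD. It measured 2.26, 1.52 and 1.38 CPM in miR-21OE-HCD, against 6.93, 10.5 and 8.29 CPM in WT-HCD. The groups overlapped on neither diet. The highest of the 6 miR-21OE libraries stood at 2.37 CPM and the lowest of the 18 WT libraries at 6.93 CPM. The fitted log2 fold change was -2.30 (SE 0.30) on NCD and -2.32 (SE 0.30) on HCD, and the batch ratios lay between -2.79 and -1.62 on the log2 scale. This gap was wider than the range of the miR-21OE libraries but narrower than that of the WT libraries, 6.93 to 22.7 CPM. rogdi was chosen on this difference, so nothing is read from the gap.

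itih2, the secreted heavy chain, was the most deeply counted of the 6 genes, with 10912 counts or more in each library, so counting error is small beside the spread of libraries. Its level was 679, 545 and 561 CPM in miR-21OE-NCD of batches 7, 8 and 9, against 2150, 2331 and 2020 CPM in WT-NCD. On HCD its level was 766, 439 and 570 CPM in miR-21OE-HCD, against 1242, 1695 and 2214 CPM in WT-HCD. The groups did not overlap on either diet, and the fitted log2 fold changes of -1.85 (SE 0.27) and -1.54 (SE 0.27) are smaller in size than those of the other genes, npas1 on HCD aside. The batch 7 pair on HCD stood apart from the others, with a log2 ratio of -0.70 against -1.95 and -1.96 in batches 8 and 9. One WT library, WT-HCD of batch 1 at 643 CPM, lay below the highest miR-21OE library.

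slc27a6, the fatty acid transporter, had 1.77, 3.63 and 2.26 CPM in miR-21OE-NCD of batches 7, 8 and 9, against 21.1, 16.1 and 45.7 CPM in WT-NCD. It had 1.52, 2.23 and 5.94 CPM in miR-21OE-HCD, against 7.85, 35.6 and 48.5 CPM in WT-HCD. No miR-21OE library reached the WT libraries on the same diet. The fitted log2 fold change was -3.42 (SE 0.72) on NCD and -3.24 (SE 0.71) on HCD. Of the 18 WT libraries, WT-NCD of batch 3 at 5.68 CPM fell below the highest miR-21OE library.

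npas1, the bHLH-PAS repressor, was lower in miR-21OE livers on NCD only, and its counts were low. On NCD it had 12, 7 and 1 counts in miR-21OE-NCD of batches 7, 8 and 9, against 304, 40 and 8 counts in WT-NCD. As CPM these were 0.608, 0.289 and 0.0514 in miR-21OE-NCD, against 13.5, 2.31 and 0.349 in WT-NCD. Each miR-21OE-NCD library was thus below its own batch partner, yet the groups overlapped because WT-NCD of batch 9 was below miR-21OE-NCD of batch 7. In batch 9 the miR-21OE over WT ratio was 0.148 with an exact 95% counting interval of 0.00333 to 1.101, which includes no difference. On HCD npas1 had 18, 3 and 4 counts in miR-21OE-HCD, against 17, 4 and 3 counts in WT-HCD. The ratios in batches 7, 8 and 9 were 1.20, 0.595 and 1.49, with counting intervals of 0.583 to 2.48, 0.0872 to 3.52 and 0.251 to 10.2. Lowering of npas1 was thus not seen on HCD, where the highest of these 6 libraries stood at 0.781 CPM. At such low counts the intervals of batches 8 and 9 allow a several-fold difference in either direction. The fitted log2 fold change was -4.06 (SE 1.26) on NCD and 0.11 (SE 1.24) on HCD. Without WT-NCD of batch 7 the NCD value was -2.03, and the HCD value was -1.15 without miR-21OE-HCD of batch 7 and 1.20 without WT-HCD of batch 7. Whether the genotype difference depends on diet was not tested, because npas1 was selected on these libraries. Without molecular identifiers on the reads, these intervals describe counting error and nothing else.

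adh8a, the alcohol dehydrogenase, was below its WT partner in each of the 6 batch pairs but varied strongly in WT. It measured 0.608, 5.95 and 4.27 CPM in miR-21OE-NCD of batches 7, 8 and 9, against 3.92, 27.3 and 78.4 CPM in WT-NCD. The NCD groups overlapped because WT-NCD of batch 7 was below miR-21OE-NCD of batches 8 and 9. On HCD it measured 0.738, 3.79 and 3.44 CPM in miR-21OE-HCD, against 4.21, 35.2 and 33.9 CPM in WT-HCD. The HCD groups did not overlap. The fitted log2 fold change was -3.33 (SE 1.12) on NCD, -2.12 without WT-NCD of batch 9, and -3.19 (SE 1.12) on HCD. adh8b (ENSDARG00000024278) is a related alcohol dehydrogenase gene and the immediate neighbour of adh8a in the RefSeq gene order. Reads shared between near copies could be split, so the level of adh8a is uncertain to that extent. adh8b stood at 20.6 to 72.0 CPM in miR-21OE-NCD, against 36.3 to 98.6 CPM in WT-NCD, and at 26.7 to 65.4 CPM in miR-21OE-HCD, against 13.9 to 97.5 CPM in WT-HCD. The groups of adh8b overlapped on both diets, and its log2 fold changes of -0.66 (SE 0.67) and -0.39 (SE 0.66) did not pass the test (adjusted p of 1.0 for both, edgeR's quasi-likelihood F-test with Benjamini-Hochberg adjustment). With a term for the batch adh8b was at -0.70 (SE 0.28, adjusted p 0.495) and -0.14 (SE 0.28, adjusted p 0.951) by the same test.

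**Figure D1:**
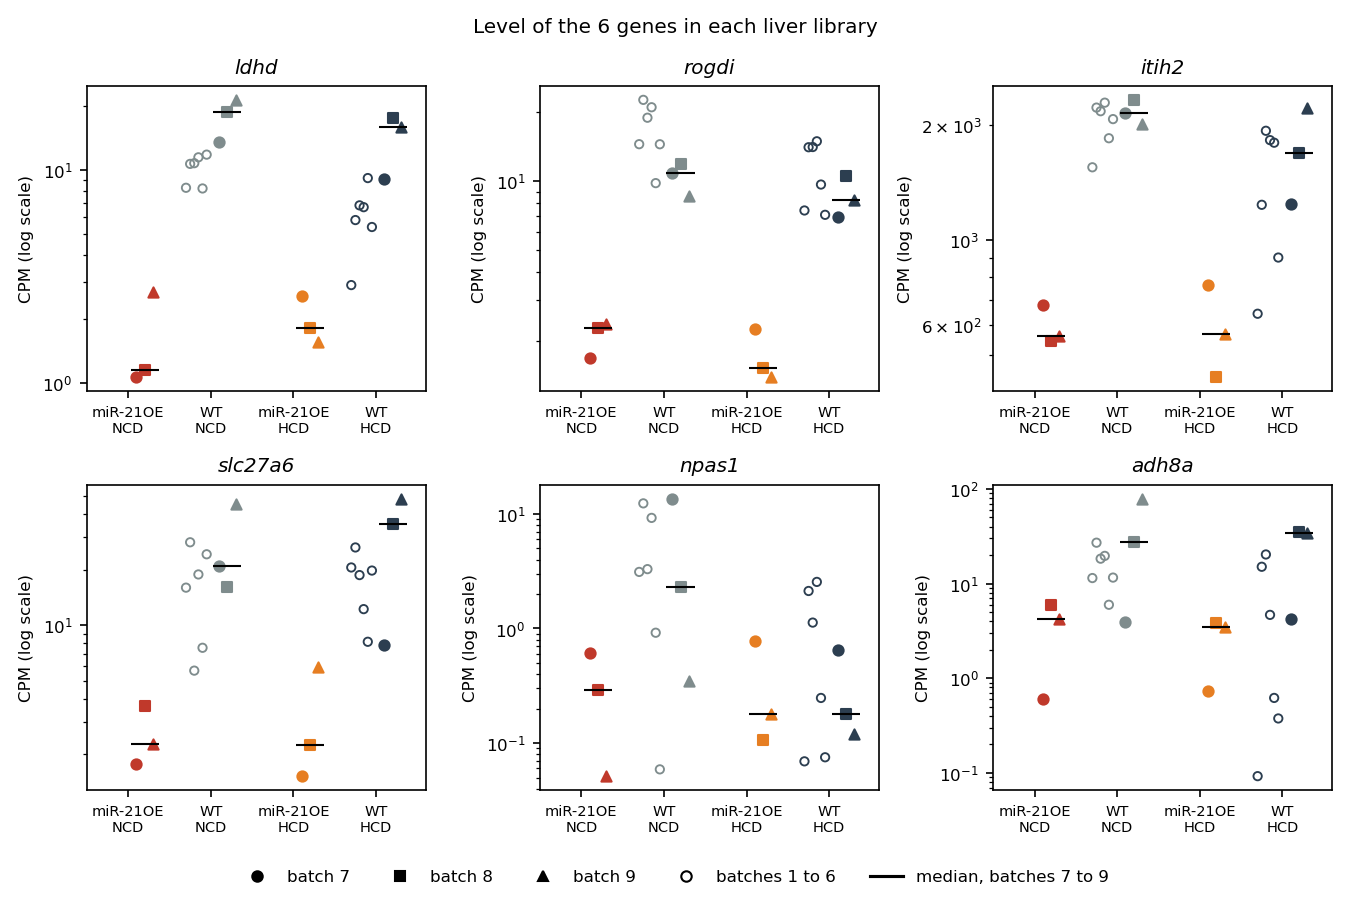
Level of each gene in each library in CPM on a log axis, with miR-21OE-NCD, WT-NCD, miR-21OE-HCD and WT-HCD from left to right. Filled symbols are batches 7 to 9, open circles the WT libraries of batches 1 to 6, and lines the medians of batches 7 to 9. For rogdi the highest of 6 miR-21OE libraries is at 2.37 CPM and the lowest of 18 WT libraries at 6.93 CPM, whereas npas1 and adh8a overlap.

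How far the groups lay apart follows from how the 6 genes were chosen, so nothing is read from these counts. For 4 of the 6, ldhd, rogdi, itih2 and slc27a6, all 3 miR-21OE-NCD libraries were below all 3 WT-NCD libraries, which held for 4.33% of all tested genes. On HCD the same was true of 5 of the 6, these 4 and adh8a, and of 4.44% of all genes. For ldhd and rogdi all 6 miR-21OE libraries were below all 18 WT libraries, which held for 0.162% of all genes.

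**Figure D2:**
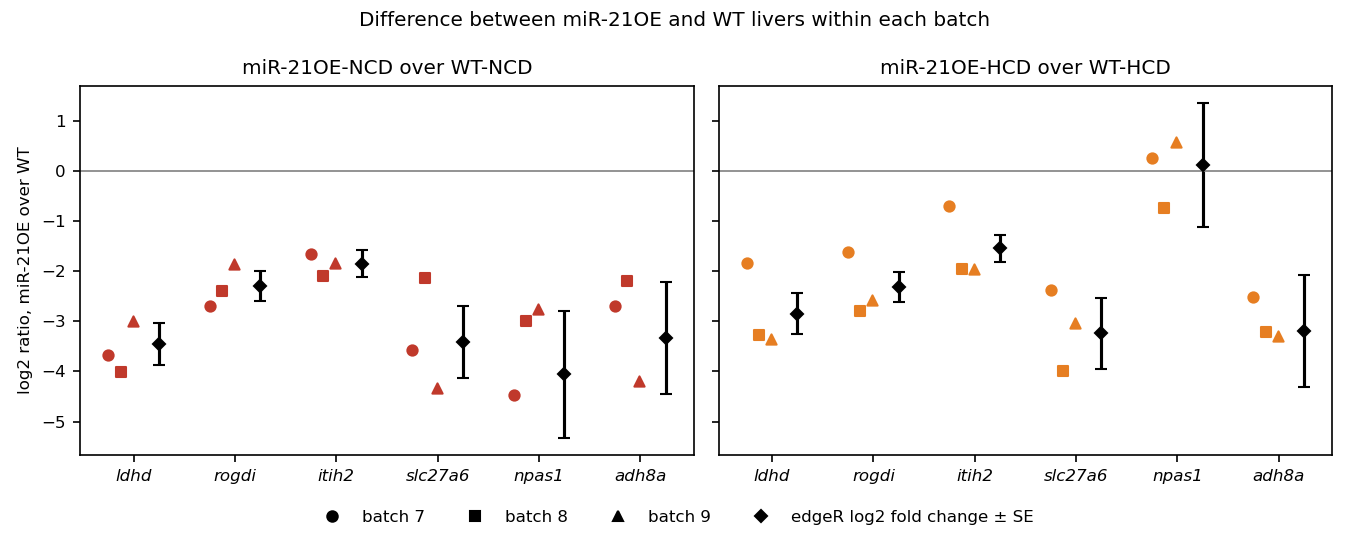
log2 ratio of miR-21OE over WT within batches 7, 8 and 9 for each gene on NCD (left) and HCD (right), with the edgeR log2 fold change and its SE as black diamonds. Every ratio is below 0 except npas1 on HCD, where 2 of 3 batches lie above 0.

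The genes known to act beside these 6 were looked at next, from lists named for each gene's pathway. These lists were chosen with earlier results of these data known, so their shares are a description and no independent support. Of 129 other genes tested in the 6 lists, edgeR without a batch term called 0 on either diet, where it called 0.0277% of all 21660 genes on NCD and 0.00462% on HCD. At an unadjusted p under 0.05 it gave 6 higher and 10 lower on NCD, 12.4% of the list genes against 5.15% of all genes. On HCD it gave 2 higher and 8 lower, 7.75% against 4.96%. DESeq2 without a batch term called 1 higher and 3 lower on NCD, against 0.712% of all genes, and 1 higher and 1 lower on HCD, against 0.495%. Lower on NCD were ACSL4 (ENSDARG00000010752, -3.44 on the log2 scale), PKLR (-1.24) and ALDH9A1 (ENSDARG00000069100, -1.40). PKLR (-1.43) was the lower gene on HCD. ACSL4 is in the list of slc27a6, and DESeq2 with the block did not call it on either diet. With the replicate block DESeq2 called 2 higher and 8 lower on NCD, against 3.23% of all genes, and 2 higher and 5 lower on HCD, against 2.15%. With the block edgeR called 1 list gene on each diet, against 0.268% and 0.245% of all genes. This was DLAT (ENSDARG00000015918), the acetyltransferase subunit of pyruvate dehydrogenase. DLAT had 82.5 to 108.5 CPM in miR-21OE-NCD, against 35.9 to 43.5 CPM in WT-NCD, and 93.2 to 99.5 CPM in miR-21OE-HCD, against 35.8 to 52.1 CPM in WT-HCD. DLAT was higher in miR-21OE livers by 1.34 (SE 0.20, adjusted p 0.0198) and 1.12 (SE 0.20, adjusted p 0.0492) on the log2 scale in the blocked edgeR fit. Without the block its adjusted p in edgeR was 0.0958 and 0.198. Of the genes around ldhd, DESeq2 with the block also called 4 lower on NCD, which edgeR called in neither fit. They were PKLR, a pyruvate kinase (-1.23 on the log2 scale), ME1, the cytosolic malic enzyme (-1.17), PC (ENSDARG00000051939), pyruvate carboxylase (-0.995), and PDHB, a subunit of pyruvate dehydrogenase (-0.73). On HCD it called 3 of these lower, PKLR (-1.42), PC (-1.08) and PDHB (-0.57). The other list genes that this fit called lower on NCD did not belong to the ldhd list. They were ALDH9A1 (ENSDARG00000069100, -1.385, and ENSDARG00000055331, -1.32), ALDH3A2 (ENSDARG00000074791, -1.335) and CLOCK (ENSDARG00000003631, -0.78). On HCD they were ENSDARG00000069100 (-1.01) and CLOCK (-1.08). Besides DLAT, it called acsl1b higher on NCD (1.54) and akr1a1a higher on HCD (1.13).

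Around ldhd, the 24 other genes of D-lactate and pyruvate metabolism had a median log2 fold change of -0.18 on NCD and -0.17 on HCD, beside medians of 0.0094 and -0.033 over all genes. Around slc27a6, the 16 other genes of fatty acid uptake and activation had medians of 0.11 and 0.017, with 8 and 7 of them below 0. Around itih2, the 9 other genes of the inter-alpha-trypsin inhibitor and hyaluronan list had medians of 0.41 and 0.33. For npas1 the 26 other bHLH-PAS genes had medians of 0.019 and -0.15, and for adh8a the 26 other alcohol and aldehyde dehydrogenases -0.084 and 0.065. For rogdi the 28 other RAVE and V-ATPase genes had medians of 0.12 and 0.033, and 0 of them reached an unadjusted p under 0.05 in edgeR on either diet. At that cut the ldhd list had 2 higher and 5 lower on NCD (29.2%), and 1 higher and 4 lower on HCD (20.8%). The slc27a6 list had 3 higher and 2 lower on NCD (31.25%), and 0 higher and 1 lower on HCD (6.25%). The itih2, npas1 and adh8a lists had 1, 1 and 2 such genes on NCD and 0, 1 and 3 on HCD. Over all genes the shares were 5.15% on NCD and 4.96% on HCD. As the lists were chosen with earlier results of these data known, nothing is read from the higher shares. Single genes of the lists spread far more widely than these medians, from -3.42 to 4.14 on NCD and from -2.99 to 3.38 on HCD.

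**Figure D3:**
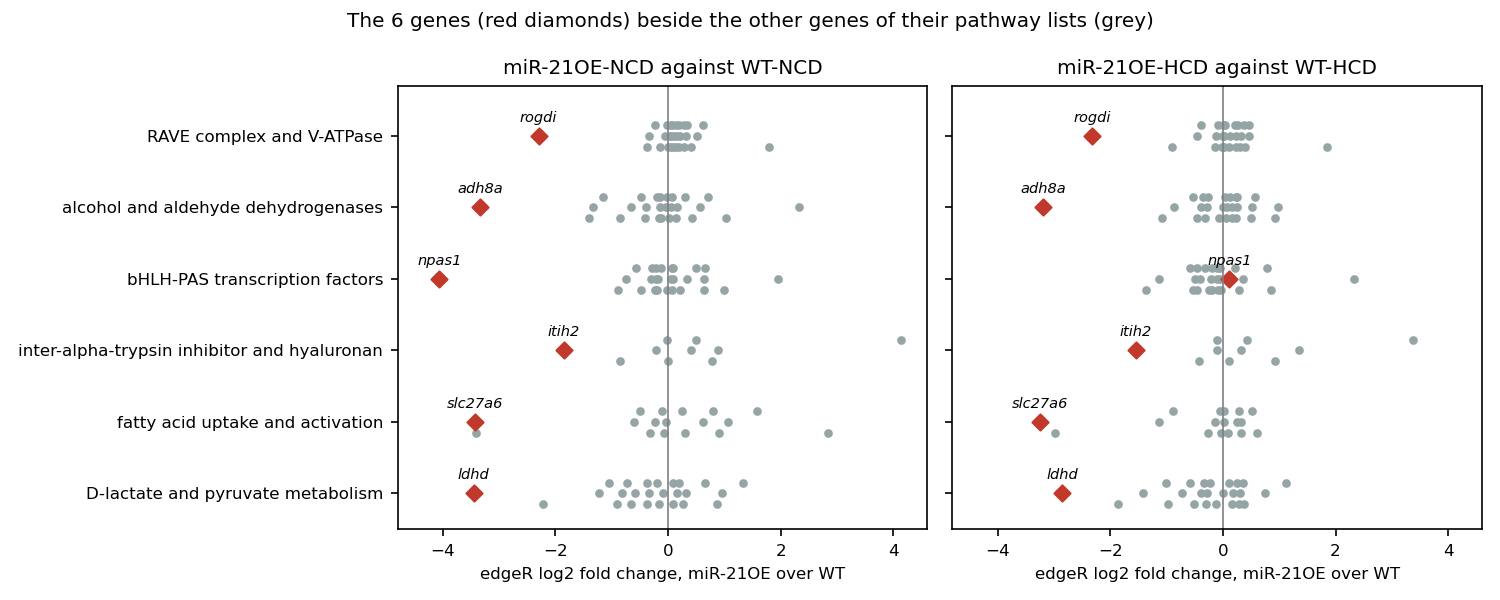
edgeR log2 fold change of miR-21OE over WT on NCD (left) and HCD (right) for the other genes of 6 pathway lists (grey points) and for the gene of the 6 that belongs to each list (red diamond). The grey points range from -3.42 to 4.14 on NCD and from -2.99 to 3.38 on HCD, and the red diamonds mark genes that were chosen on this difference.

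The 6 genes lie on 6 different chromosomes in the RefSeq gene table of assembly GRCz12tu. Of the 5 protein-coding neighbours listed on each side, 42 were matched and tested. edgeR called 0 of them on either diet, without or with the block. At an unadjusted p under 0.05 it gave 3 higher and 2 lower on NCD without the block, 11.9% against 5.15% of all genes, and 2 higher and 1 lower on HCD, 7.14% against 4.96%. DESeq2 called 0 without the block and 1 with it, bach1a, which was higher on HCD. The median log2 fold change of the 42 neighbours was 0.093 on NCD and 0.050 on HCD.

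The genes whose level followed each of the 6 most closely were taken by Pearson's r of log2 CPM, centred on the batch mean, over the 24 libraries and 11692 genes whose mean count was 50 or more. The libraries of a batch are not independent of each other, and the value holds the genotype difference that chose the 6 genes, so r is a description only. IGFBP2, a binding protein of insulin-like growth factors, was among the first 2 for ldhd (r = 0.95), rogdi (0.95) and itih2 (0.98). HSD3B7, an enzyme of bile acid synthesis in mammals, was so for rogdi (0.98) and itih2 (0.96), and CNPY3, a chaperone cofactor, for ldhd (0.95). IGFBP2 itself had 38.0 to 56.5 CPM in miR-21OE-NCD, against 183 to 290 CPM in WT-NCD. For slc27a6 the first 2 were AIFM2, an oxidoreductase that protects membrane lipids (0.93), and DPH7, which acts in diphthamide synthesis (0.92). For npas1 they were ENSDARG00000117369 (0.91) and ME1, the cytosolic malic enzyme (0.89), and for adh8a zgc:77439 (0.92) and soul5, of the haem-binding SOUL family (0.91).

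The 12 WT libraries of batches 1 to 6 hold no genotype difference but are among the 24 that picked these genes, so their values are no second observation. They do hold the diet difference. With 1 WT-HCD and 1 WT-NCD library per batch, centring leaves only that difference, so r rests on 6 batches. In them r was 0.98 between ldhd and IGFBP2, 0.97 between rogdi and IGFBP2, 0.98 between itih2 and IGFBP2, and 0.96 between adh8a and zgc:77439. It was 0.46 between slc27a6 and AIFM2 and 0.68 between ldhd and CNPY3.

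The diet response of the 6 genes in WT livers asked whether cholesterol feeding moves the same genes in livers without the transgene. MIR21 ENSDARG00000082187 was itself higher on HCD in every WT batch, by CPM on library totals. It stood at 1.58 CPM in WT-NCD and 12.1 CPM in WT-HCD of batch 1, at 2.29 and 2.71 CPM in batch 3, and at 1.89 and 2.265 CPM in batch 5. These levels were not scaled by TMM. With library totals the median log2 fold change of all genes on HCD was itself 0.45 in batches 1 to 6. Small rises, as in batches 3 and 5, are therefore not read as a response of MIR21 to diet. The share of all genes higher on HCD in every WT batch was not counted. The part of MIR21 in the diet response was not tested. Without a batch term, edgeR called 0 of the 6 lower on HCD in batches 1 to 6, where 0.0854% of 23420 genes were called lower. DESeq2 without a batch term also called 0, against 1.72% of all genes. At an unadjusted p under 0.05, npas1, ldhd and rogdi were lower, 3 of 6, against 4.11% of all genes. The log2 fold change was below 0 for 5 of 6, all but slc27a6, against 47.0% of all genes. With the replicate block npas1 alone was called lower by edgeR, against 1.43% of all genes, and DESeq2 with the block called 5, all but slc27a6, against 8.13%. The median log2 fold change of the 6 was -0.63 without and -0.69 with the block, beside 0.037 and 0.076 over all genes.

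npas1 was the one gene of the 6 that edgeR called lower on HCD with all 12 libraries, and only in the blocked fit. It had 0.0693, 2.12, 1.13, 2.55, 0.248 and 0.0752 CPM in WT-HCD of batches 1 to 6, against 3.12, 12.4, 3.30, 9.23, 0.918 and 0.0590 CPM in WT-NCD. It was lower on HCD in 5 of 6 batches, and the groups overlapped. The exception, batch 6, rests on 3 counts in WT-HCD and 1 count in WT-NCD, and its HCD over NCD ratio of 1.27 has a counting interval of 0.102 to 66.9. In batch 1, with 3 counts in WT-HCD and 87 in WT-NCD, the ratio was 0.0222 with a counting interval of 0.00450 to 0.0671. The log2 fold change was -2.20 (SE 1.00, adjusted p 0.340) without the block and -2.26 (SE 0.50, adjusted p 0.0452) with it, by edgeR's quasi-likelihood F-test. In the blocked fit, leaving out 1 library at a time gave adjusted p-values of 0.0218 to 0.135, and 2 of 12 fits kept the call.

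ldhd was lower on HCD in 5 of 6 batches, with 2.89, 5.83, 6.84, 6.71, 9.19 and 5.41 CPM in WT-HCD of batches 1 to 6, against 8.28, 10.7, 10.8, 11.5, 8.21 and 11.8 CPM in WT-NCD. Only WT-HCD of batch 5 exceeded any WT-NCD library. Its log2 fold change was -0.70 (SE 0.24, adjusted p 0.204) without the block and -0.77 (SE 0.20, adjusted p 0.0673) with it, and did not pass the edgeR test in either. In the blocked fit it passed in 2 of 12 fits that left out 1 library, with adjusted p-values of 0.0439 to 0.188. rogdi was lower on HCD in 6 of 6 batches, with 7.12 to 14.9 CPM and a median of 11.9 CPM in WT-HCD, against 9.80 to 22.7 CPM and a median of 16.7 CPM in WT-NCD. Its groups overlapped, and its log2 fold change of -0.56 (SE 0.24, adjusted p 0.314) or, with the block, -0.57 (SE 0.15, adjusted p 0.0659) did not pass the edgeR test. In batch 5 the HCD over NCD ratio of rogdi was 0.986 with a counting interval of 0.821 to 1.19, which includes no difference.

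itih2 was also lower on HCD in 6 of 6 batches, with 643 to 1935 CPM and a median of 1520 CPM in WT-HCD, against 1553 to 2292 CPM and a median of 2127 CPM in WT-NCD. Its log2 fold change was -0.51 (SE 0.31, adjusted p 0.494) without the block and -0.61 (SE 0.23, adjusted p 0.179) with it in edgeR. The counts of 6 of 6 for rogdi and itih2 hold with TMM scaling. On library totals rogdi was higher on HCD in batch 5, and itih2 in batches 3 and 5. The share of all genes lower on HCD in every batch was not counted. adh8a ranged from 0.0924 to 20.3 CPM with a median of 2.64 CPM in WT-HCD, against 5.97 to 27.01 CPM with a median of 14.9 CPM in WT-NCD, and was lower in 5 of 6 batches. Its log2 fold change was -1.164 (SE 0.92, adjusted p 0.637) without the block and -2.56 (SE 0.81, adjusted p 0.118) with it in edgeR, so the block moved its size by over 1.5 times. Without the block it was -1.89 when WT-HCD of batch 3 was left out. slc27a6 had 8.14 to 26.4 CPM with a median of 19.3 CPM in WT-HCD, against 5.68 to 28.2 CPM with a median of 17.4 CPM in WT-NCD. It was higher on HCD in 3 of 6 batches and lower in 3, and its log2 fold change was 0.12 (SE 0.38, adjusted p 0.942) in edgeR.

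**Figure D4:**
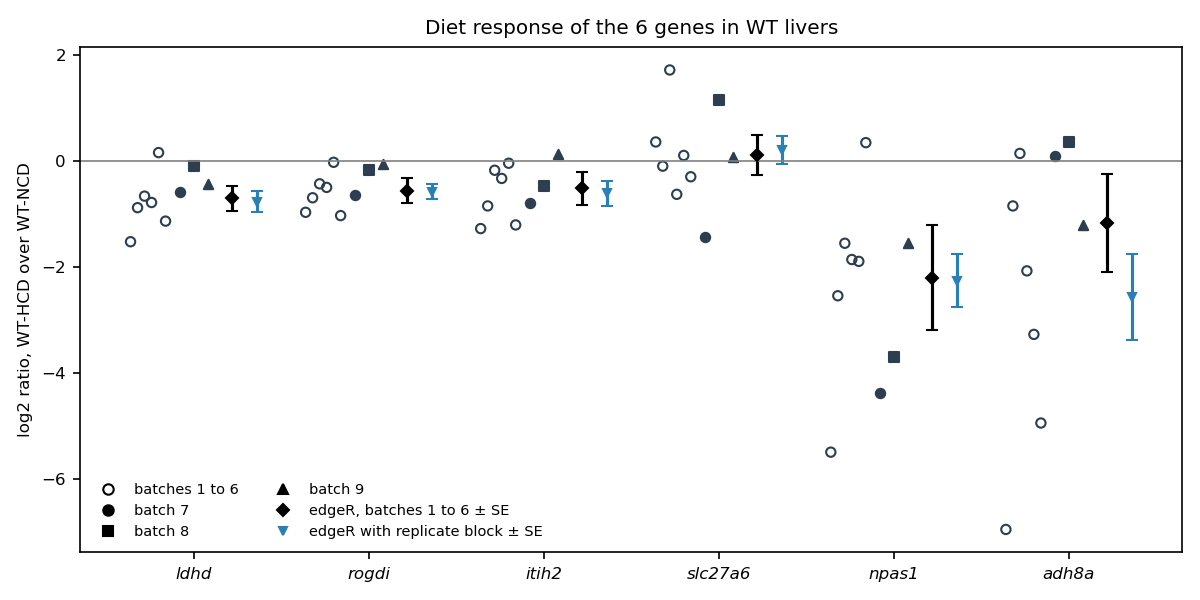
log2 ratio of WT-HCD over WT-NCD within each batch for each gene, with batches 1 to 6 as open circles and batches 7 to 9 as filled symbols, beside the edgeR log2 fold change and SE of batches 1 to 6 without (diamond) and with (triangle) the replicate block. With TMM scaling rogdi and itih2 lie below 0 in each of batches 1 to 6, and npas1 and adh8a reach -5.49 and -6.95.

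In batches 7 to 9 the WT libraries also entered the comparisons that chose the genes, so their diet values are given without a test. npas1 had a log2 fold change of -4.05 (SE 1.25), with HCD lower in 3 of 3 batches, and -2.01 without WT-NCD of batch 7. The other 5 genes lay between -0.58 and 0.15. The lowest of them, adh8a, was at 0.64 without WT-NCD of batch 9. In miR-21OE livers the 6 genes lay between -0.44 and 0.32 for HCD over NCD, with SEs of 0.26 to 1.26. On HCD the npas1 ranges of WT and miR-21OE livers overlapped.

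With TMM scaling the diet ratios of ldhd, rogdi and itih2 moved together over the 6 WT batches. The share of all gene pairs that did so was not counted. All 15 pairs of the 6 genes were compared, with 6 batches each. For rogdi and itih2 Pearson's r was 0.95 (exact permutation p 0.00556, adjusted 0.0417) and Spearman's rho 0.94 (exact permutation p 0.0167, adjusted 0.0833). For ldhd and itih2 r was 0.87 (exact permutation p 0.00278, the smallest possible, adjusted 0.0417) and rho 1.0 (exact permutation p 0.00278, adjusted 0.0417). For ldhd and rogdi r was 0.95 (exact permutation p 0.0111, adjusted 0.0556) and rho 0.94. Without the 2 batches farthest from the median of the first gene, r over the remaining 4 was 0.99, 0.96 and 0.99 in the same order. With library totals in place of TMM r was 0.64, 0.70 and 0.97, and none of the 15 pairs passed the adjusted threshold. Without the 2 farthest batches r on library totals was 0.95, -0.40 and 0.95. The call, and for ldhd and itih2 the relation itself, thus rests on the scaling. Pairs that include slc27a6 had r between -0.13 and 0.34.

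The hepatocyte markers moved with the same batches, a relation looked at after these values were seen. Their summed level was 14360 to 37360 CPM in WT-HCD of batches 1 to 6, against 23120 to 45890 CPM in WT-NCD, and was lower on HCD in all batches but batch 5. The sum is weighted toward tfa, at 4117 to 24480 CPM, and fabp10a, at 1806 to 14720 CPM, while hp reached 34.2 CPM at most. The diet response of single markers is not given here. With TMM scaling, batch 5 was also the batch in which ldhd was not lower and rogdi and itih2 were lower by the least. Over the 6 batches r with the hepatocyte ratio was 0.91 for ldhd (exact permutation p 0.0333, adjusted over 6 genes 0.0667), 0.88 for rogdi (exact permutation p 0.0333, adjusted 0.0667) and 0.78 for itih2 (exact permutation p 0.0194, adjusted 0.0667). Spearman's rho was 0.83, 0.77 and 0.83 for these genes (exact permutation p 0.0583, 0.103 and 0.0583). Without the 2 farthest batches r was 0.37, 0.40 and 0.60, so the relation rests on them. The diet ratio of ldhd was below that of the hepatocyte sum in 6 of 6 batches, by a median of -0.40 on the log2 scale, that of rogdi in 5 and that of itih2 in 4. The part of hepatocyte content in the diet response was not tested. WT-HCD of batch 1, where the hepatocyte sum was lowest, was also the lowest WT library for ldhd, itih2 and adh8a. The same library had the highest level of MIR21 ENSDARG00000082187. Without that library the diet log2 fold change was -0.58 for ldhd and -0.39 for itih2, in the fit with no batch term. Intestinal epithelium markers, 6 genes, summed to 3.34 to 1107 CPM in WT-HCD of batches 1 to 6, against 11.3 to 66.3 CPM in WT-NCD. Leukocyte markers, 6 genes, summed to 11.6 to 318 CPM in WT-HCD, against 6.17 to 10.4 CPM in WT-NCD, with no overlap but a narrow gap. The 318 CPM belong to WT-HCD of batch 6, where EPX alone reached 292 CPM. The next highest library, WT-HCD of batch 1, had 53.2 CPM. The share of all genes without overlap in these libraries was not counted. Biliary markers, 4 genes, summed to 1025 to 3401 CPM in WT-HCD, against 873 to 2265 CPM in WT-NCD, and were higher on HCD in 6 of 6 batches. Exocrine pancreas markers, 8 genes, varied most widely, from 215 to 21650 CPM in WT-HCD, against 831 to 17120 CPM in WT-NCD. They were higher on HCD in some batches and lower in others. In WT-HCD of batch 2 their 21650 CPM came close to the hepatocyte sum of 23000 CPM. The part of these other cells in the diet response was not tested, and leaving out any 1 of the 12 libraries gave adjusted p-values of 0.118 or more for each of the 6 genes in edgeR without a batch term.

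**Figure D5:**
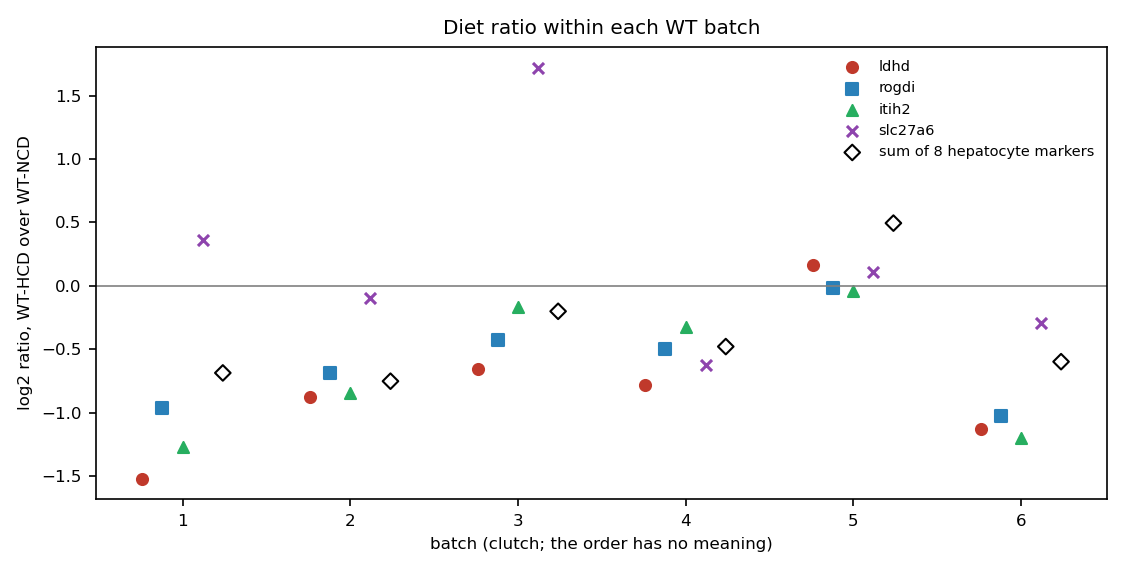
log2 ratio of WT-HCD over WT-NCD in each of the 6 WT batches for ldhd, rogdi, itih2 and slc27a6 and for the summed CPM of 8 hepatocyte markers (open diamonds). With TMM scaling ldhd, rogdi and itih2 share their order over batches closely, and slc27a6 does not.

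Between genotypes, the log2 ratio of the hepatocyte sum, miR-21OE over WT within batches 7, 8 and 9, was -0.13, -0.047 and -0.19 on NCD and 0.50, -0.35 and -0.082 on HCD. Single markers differed. In edgeR fga, FGB, FGG and hp were at -0.41, -0.32, -0.42 and -3.78 on NCD. On HCD they were at -0.58, -0.68, -0.60 and -2.61. The other markers, fabp10a, tfa, serpina1 and CP, lay from -0.082 to -0.035 on NCD and from 0.045 to 0.26 on HCD. None of these markers passed the threshold, without or with the block. Endothelial markers, 5 genes, summed to 75.8 to 89.0 CPM in miR-21OE-NCD, against 110 to 128 CPM in WT-NCD, and to 102 to 111 CPM in miR-21OE-HCD, against 121 to 148 CPM in WT-HCD, with no overlap on either diet. Among single genes, 4.33% on NCD and 4.44% on HCD were below WT without overlap. No endothelial marker passed the threshold, without or with the block. kdrl, cdh5, TIE1 and FLI1 lay from -0.56 to -0.29 on NCD and from -0.64 to -0.305 on HCD. EGFL7 was higher, at 0.24 and 0.27. Exocrine pancreas markers, 8 genes, spread from 500 to 35780 CPM in miR-21OE-NCD, against 806 to 12980 CPM in WT-NCD, the highest value being miR-21OE-NCD of batch 9. On HCD they summed to 335 to 1756 CPM in miR-21OE-HCD, against 901 to 2146 CPM in WT-HCD. Erythrocyte markers, 5 genes, were lower in miR-21OE livers in all 6 batch pairs, with 14.8 to 37.3 CPM in miR-21OE-NCD, against 17.7 to 47.9 CPM in WT-NCD, and 11.7 to 48.3 CPM in miR-21OE-HCD, against 15.4 to 85.2 CPM in WT-HCD. These groups overlapped on both diets, and the share of all genes lower in every pair was not counted. No erythrocyte marker tested passed the threshold, without or with the block. gata1a was higher on NCD (0.59) and lower on HCD (-1.23). The globin gene hbaa1 had 10 counts in total. The part of hepatocyte content and of these other cells in the lower levels of the 6 genes was not tested.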

How the data were processed

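For 24 bulk RNA-seq libraries the authors deposited whole-number counts by Ensembl gene ID in a single table, not normalized. The libraries were directional and depleted of ribosomal RNA. The submitters' processing notes name cutadapt 1.16, STAR 2.7.9a, featureCounts 1.6.3 and the build GRCz11. The strand setting of the counting is not given in the sources used here, so overlapping and antisense genes and near copies are uncertain. A gene table gave symbols for 29201 of 32520 IDs, many of them symbols of human genes. No coordinates or sequences are printed, because no annotation of GRCz11 was used here.

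The test was edgeR's quasi-likelihood F-test (version 4.0.16, R 4.3.3; two-sided) on these counts, using TMM factors, a minimum of 10 counts in total over the fitted libraries, Benjamini-Hochberg adjustment over all genes tested and a threshold of 0.05. SEs were obtained as the size of the log2 fold change over the root of F. The 12 WT libraries of batches 1 to 6 were fitted with 1 mean per diet, and the 12 libraries of batches 7 to 9 with 1 mean per group. Neither fit had a batch term, and the study's methods name no design formula. The genes named are the 6 genes, the genes of the pathway lists past edgeR's threshold without or with the block, the 2 genes most like each of the 6 and the neighbours past the threshold. adh8b, bach1a and the list genes that DESeq2 called and edgeR did not were named after their values were seen. The 6 genes and all lists were chosen with earlier results of these data known. The test was checked on simulated data that held no batch effect and large changes in well counted genes only. That check does not cover small changes, low counts or batch effects.

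The labels give the batch, and each library pools livers of 1 clutch. After group means were removed, the log2 CPM of 2 libraries from 1 batch but different groups correlated with a mean r of 0.43 (minimum 0.14, 18 pairs) in batches 7 to 9 and 0.50 (minimum 0.32, 6 pairs) in WT of batches 1 to 6, so the batch pairs the libraries. Values with this replicate block are given where they change a call or a count, and for the genotype difference of the 6 genes and adh8b. The other alternatives were DESeq2 1.42.0 without and with the block, its size factors in edgeR (RLE), library totals, no count filter, filterByExpr, and each library left out in turn. Fits of all 18 WT libraries include libraries that chose the 6 genes, and no calls are given from them. No 2 libraries of a group agreed within sampling noise (smallest chi-square per degree of freedom 24.7). The labels do not say whether larvae of 1 batch were raised in separate tanks, so p-values measure the spread between these pools.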

Additional observations from a re-analysis of the deposited data

Results flagged for a closer look

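Each gene's level was examined for a single library far from the others in WT-NCD and in WT-HCD, 9 libraries each and 12 groups of values in all. 1 stood apart: adh8a in WT-NCD of batch 9 was 78.4 CPM, against 27.3 CPM in the next highest WT-NCD library, a gap of 0.69 of the whole range. Chance alone would mark about 1 in 20 such groups if values were normally distributed. CPM were not put on a log scale for this check, so that rate may not hold. The value rests on 1800 counts. It lies in 1 of the 3 WT-NCD libraries that the NCD comparison of adh8a uses, and without it that log2 fold change was -2.12 in place of -3.33.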

How the results depend on the processing

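For the diet in WT livers of batches 1 to 6, 34 genes were called by edgeR without a batch term, 793 with the replicate block, 918 by DESeq2, 2609 by DESeq2 with the block, 92 with library totals and 61 with filterByExpr. Leaving out 1 library gave 19 to 68 without and 134 to 490 with the block. For miR-21OE against WT on NCD the count was 6, and 58 with the block, 106 by DESeq2 and 415 by DESeq2 with the block, with 0 to 10 and, with the block, 15 to 70 on leaving out 1 library. On HCD it was 1, and 53, 82 and 340 in the same fits, 0 with library totals, 9 with no count filter and 2 with filterByExpr, with 0 to 10 and, with the block, 5 to 60 on leaving out 1 library. Of the 6 genes, 0 were called for the diet in WT livers, 1 with the block and 5 by DESeq2 with the block, and 0 to 1 on leaving out 1 library.

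The diet value of slc27a6, 0.12, ranged from -0.062 to 0.32 on leaving out 1 library and from -0.078 to 0.37 with the block as well. The other 5 genes kept a negative diet value in all these fits, that of adh8a (-1.164) moving to -1.89 without WT-HCD of batch 3. Library totals moved the median diet change of all genes to 0.45 and the values of ldhd, rogdi and itih2 to -0.40, -0.22 and -0.20. On NCD and, except for npas1, on HCD the 6 genes were lower in miR-21OE livers in every fit run, a direction that their choice fixed. With the replicate block ldhd, rogdi and itih2 were at -3.48, -2.29 and -1.86 on NCD (SE 0.37, 0.29 and 0.26). On HCD they were at -2.78, -2.31 and -1.56 (SE 0.36, 0.29 and 0.26). slc27a6, npas1 and adh8a were at -3.34, -3.52 and -3.11 on NCD (SE 0.48, 0.63 and 0.39). On HCD these 3 were at -3.20, 0.091 and -3.07 (SE 0.47, 0.69 and 0.39). The causes were not tested. With 3 miR-21OE libraries per diet and 1 to 18 counts of npas1 in each, depth limits what can be said of that gene.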
